A study of Mus musculus with 47 samples.

Results

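The Sox genes are a family of transcription factors that share a DNA-binding domain called the HMG box. SoxB1 factors (Sox1, Sox2 and Sox3) are known for holding neural progenitors in an undifferentiated state, and Sox2 also acts with Oct4, the product of Pou5f1, in pluripotent cells. The SoxB2 factor Sox21 counteracts SoxB1 factors, the SoxC factors (Sox4, Sox11 and Sox12) act in young neurons, and the SoxE factor Sox9 is best known in neural stem cells, glia and cartilage. These 8 genes were taken as the RefSeq mRNA 3′ UTR rows whose names map to Sox1, Sox2, Sox3, Sox21, Sox4, Sox11, Sox12 and Sox9. They are 8 of the 19 Sox genes and of the 18913 genes with a symbol among 28190 mRNA transcripts. All 8 passed the filter on low reads and the minimum of covered T positions used below.

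The libraries came from P19 cells, a mouse embryonal carcinoma line with the genotype given as WT in all groups. Undifferentiated cells (D0) were grown in serum-containing medium and received 20 µM 4-thiouridine (4sU), a uridine analog that enters new RNA. Differentiated cells (D6) were kept for 6 days in NDiff medium with 500 nM retinoic acid, which drives P19 cells towards neurons, and received 500 µM 4sU, so that state and medium cannot be told apart in any comparison, nor 4sU dose from either in the libraries with 4sU. In SLAM-seq, alkylated 4sU is read as C in place of T, and the T>C conversion rate is the share of covered T positions read as C. In the catabolic assay cells were labeled for 15 h before 4sU was withdrawn, so that label was lost with time. The methods of the study give the labeling as 15 h in one passage and as a shorter time in another, and 15 h is used for these libraries throughout. The anabolic assay began without 4sU and measured its uptake. The design text gives the 4 time points as 0, 3, 6 and 9 h, which are used here, whereas the sample labels give 0, 1, 3 and 9 h. Every combination of state, assay and time had 3 libraries, but the catabolic assay at D6 had only 2 at 6 h. Each of the 47 libraries held 1489528 to 11677046 reads on 3′ UTRs, with a median of 7154290 at D0 and 3715700 at D6.

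Of the markers listed for pluripotent cells, 4 of 4 tested were lower at D6 without 4sU, and 6 of 6 neuron markers were higher, where 4.08% of 20697 transcripts were called lower and 6.03% higher. Of the 4 neural progenitor markers, Fabp7 and Hes5 were called higher and Nes (log2 0.40, edgeR adjusted p = 0.852) and Pax6 (-0.20, 1) were not called. The summed level of the neuron markers was 434 to 710 RPM, the reads on a 3′ UTR scaled to the reads on all 3′ UTRs of the library, at D0 and 5925 to 8293 at D6. For the pluripotent markers it was 300 to 590 at D0 and 0.896 to 36 at D6. None of the 4 glia, 2 neural crest and 3 endoderm and mesoderm markers tested was called by edgeR or DESeq2, and none had an unadjusted p under 0.05 in edgeR. Among the glia markers, Gfap had no read in 22 of 23 D6 libraries, Olig2 had none in 21, and Aqp4 and Aldh1l1 had none in any library, whereas Slc1a3, also a marker of radial glia, had a median of 175 RPM at D0 and 88.3 at D6.

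Each Sox gene had 1 interval in the files, which shared no base with the 3′ UTR of another transcript in them. The intervals lie on mm10, and the GENCODE M21 annotation of that build places each of them in the 3′ UTR directly after the stop codon. In this annotation, 7 of the genes have 1 exon and Sox9 has 3. Because the libraries were primed at the poly(A) tail, the end of the interval is what the reads report on. The poly(A) signal AATAAA was found in the last 50 bases of all 8 intervals. Of 12503 annotated mouse 3′ UTRs of at least 700 bases, 61.3% hold these letters in their last 50 bases. The 30 bases around the last such match are shown for each gene, 5′ to 3′ on the strand of the gene, with the signal in capitals.

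Sox1: atgaggtAATAAAagaacacccctcccttt
Sox2: tgagataAATAAAtttttgaaatatggaca
Sox3: gtgagagatcAATAAAttttataaccaata
Sox21: agagttaAATAAAgcctgaaccagggaaaa
Sox4: gtgcaaaAATAAAgaattaaaaaaaaaaaa
Sox11: ttcaacaAATAAAttcattgacatttctgg
Sox12: tttatcctAATAAAcgtcttaacacccaaa
Sox9: tgtttacAATAAAtatacattgcattaaag

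The plus-strand sites are chr8:12399523-12399552 (Sox1), chr3:34652426-34652455 (Sox2) and chr11:112787720-112787749 (Sox9). The minus-strand sites are chrX:60891366-60891395 (Sox3), chr14:118233239-118233268 (Sox21), chr13:28950720-28950749 (Sox4), chr12:27334269-27334298 (Sox11) and chr2:152393611-152393640 (Sox12). The intervals were 712 bases long for Sox3, 983 for Sox4, 1086 for Sox2, 1572 for Sox21, 2019 for Sox1, 2247 for Sox9, 3143 for Sox12 and 6953 for Sox11. The Sox4 site runs into a stretch of A that is part of the genome, and the annotated Sox4 transcript goes on for 1797 bases beyond the interval. Sox4 reads covered 8.26 T positions each, against 23.5 over all transcripts and 15.2 to 33 for the other 7 genes. Where Sox4 reads were primed was not tested. The Sox1 transcript also goes on, for 571 bases. The annotated spans of Sox1ot and Sox2ot cover the Sox1 and Sox2 intervals on the same strand, and their reads cannot be told apart there. The lincRNA Gm26735 overlaps 956 bases of the Sox4 interval on the opposite strand.

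AU-rich elements, which can shorten the life of an mRNA, were looked for by the letters ATTTA and TTATTTATT on the strand of the gene. The longer motif contains the shorter. ATTTA occurred 10 times in Sox11, 7 in Sox1, 6 in Sox9, 4 in Sox2, 3 in Sox21, 2 in Sox12, 1 in Sox3 and 0 in Sox4. In annotated 3′ UTRs at least as long, cut to the same length from their end, the median count was 13 for Sox11, 3 for Sox1, 4 for Sox9, 2 for Sox2, 3 for Sox21, 5 for Sox12, 1 for Sox3 and 2 for Sox4. Sox11 thus lay below this median and Sox1 above it. The longer motif occurred once each in Sox11 and Sox9 and in no other of these intervals, and both sites are shown with the motif in capitals.

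Sox11, chr12:27335425-27335454: aaattaagcaTTATTTATTgaaaactatgt
Sox9, chr11:112786749-112786778: tgtgctaaaaTTATTTATTttgtaaggaga

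Among annotated 3′ UTRs at least as long, the last 6953 bases held TTATTTATT in 28.9% (n = 277) and the last 2247 bases in 10.4% (n = 4601). For ATTTA, 78.6% of 10373 3′ UTRs held it in their last 983 bases, the length of the Sox4 interval, and 69.4% of 12414 in their last 712 bases, the length of the Sox3 interval. A match is a description of the letters and not a site of action.

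The first comparison asked how Sox mRNA differed between D6 and D0 without 4sU. Sox11, Sox9, Sox4 and Sox21 rose, while Sox1, Sox2, Sox3 and Sox12 did not pass the test. So 4 of the 8 Sox genes were called by edgeR's quasi-likelihood test at an adjusted p under 0.05, all higher at D6, where 10.1% of 20697 transcripts were called, 6.03% higher and 4.08% lower. In bulk RNA, fewer cells of a type and less RNA per cell cannot be told apart. Nothing in the labels says that libraries of a group came from separate cultures, and the series calls them biological duplicates or triplicates.

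**Figure D1:**
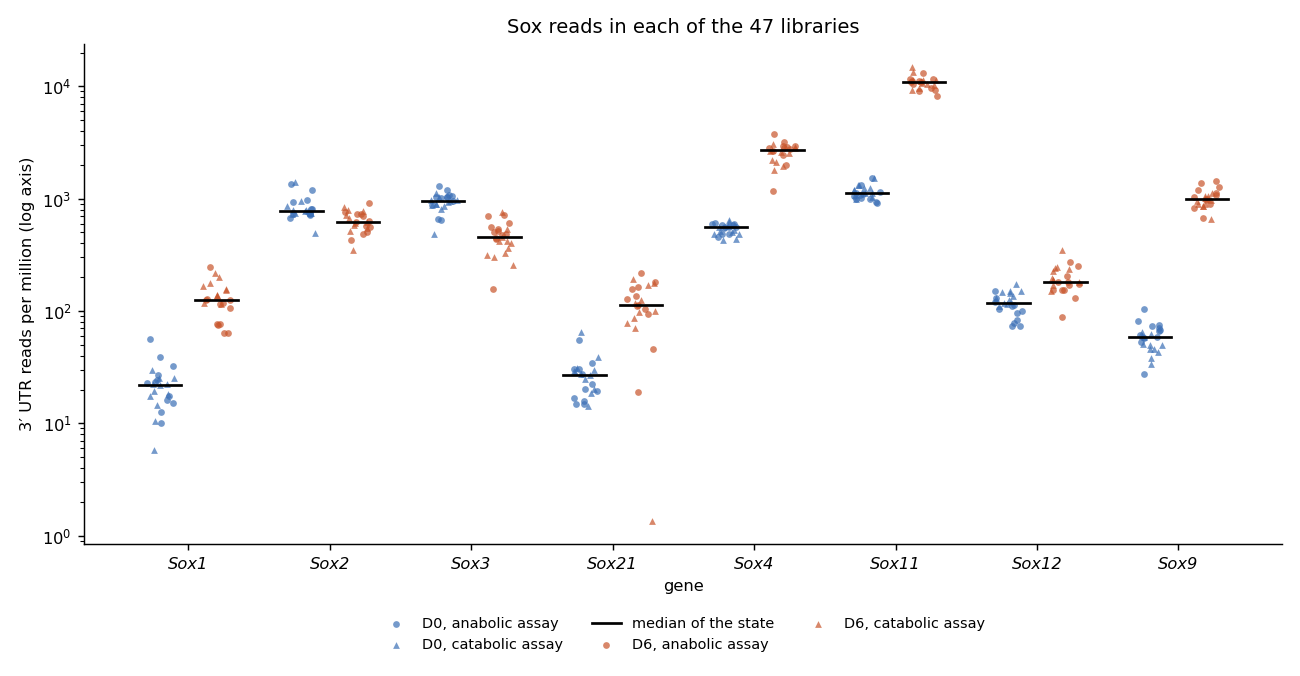
RPM on each Sox 3′ UTR (log axis) in the 47 libraries, with D0 in blue, D6 in orange, circles for the anabolic and triangles for the catabolic assay, and black bars for the median of each state. The states separate completely for Sox1, Sox4, Sox11 and Sox9 and overlap for the other 4 genes, and 1 D6 library has a Sox21 level of 1.34 RPM.

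Sox11, a SoxC factor of newborn neurons, had 943, 1529 and 924 RPM in the 3 D0 libraries without 4sU. At D6 it had 10848, 13229 and 9251. All 3 D6 libraries lay far above all D0 libraries, with means of 1132 ± 344 and 11109 ± 2002 (SD, n = 3). The log2 difference was 3.25 (SE 0.18, edgeR adjusted p = 2.1e-22). Over all time points Sox11 ranged from 924 to 1529 (median 1120) in 24 D0 libraries and from 8256 to 14956 (median 11001) in 23 D6 libraries. By mean reads in each of the 8 assay and time points, it had rank 69 to 111 of 28190 mRNA transcripts at D0, and rank 1 or 2 at D6. Divided by the length of the interval, its mean without 4sU was 163 RPM per kb at D0 (rank 2919) and 1598 at D6 (rank 270). A read of these libraries reports 1 transcript end whatever the length, so that both scales are given.

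Sox9, the SoxE factor of neural stem cells and glia, had 81.3, 27.6 and 73.1 RPM at D0. At D6 it had 1378, 1201 and 966, so that the states did not overlap. The log2 difference was 4.29 (SE 0.31, edgeR adjusted p = 3.3e-17), the largest estimate of the 8 genes in this comparison. Over all libraries it ranged from 27.6 to 104 at D0 and from 661 to 1440 at D6. It was thus high in all 23 D6 libraries, whereas 5 of the 7 glia markers had a median of 0 in them.

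Sox4, the second SoxC factor, had 564, 488 and 595 RPM at D0 and 2831, 2743 and 2427 at D6. Relative to its mean it had the smallest spread of the 8 genes at D0, from 427 to 639 over 24 libraries, and it ran from 1161 to 3737 over 23 D6 libraries. The log2 difference was 2.26 (SE 0.21, edgeR adjusted p = 2.5e-13). Its rank by mean reads in each time point was 347 to 397 at D0 and 10 to 34 at D6.

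Sox21, the SoxB2 factor, had 15.7, 14.7 and 30.3 RPM at D0 and 135, 163 and 45.4 at D6. The log2 difference was 2.50 (SE 0.70, edgeR adjusted p = 0.0116), the least precise of the 4 calls. The call was lost without D0 library 55 (log2 2.32, adjusted p = 0.0676), without D0 library 56 (2.40, 0.0587) and without D6 library 38 (2.15, 0.0602). Over all libraries the states overlapped for Sox21. The D0 libraries reached 65 RPM, and 3 D6 libraries lay below that, at 45.4, 18.9 and 1.34 RPM, the last with only 2 Sox21 reads.

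None of the SoxB1 factors was called by edgeR in this comparison. Sox1 had 39.1, 32.4 and 56.6 RPM at D0 and 124, 117 and 75.2 at D6, without overlap, at a log2 difference of 1.29 (SE 0.53, edgeR adjusted p = 0.118). DESeq2 called it (adjusted p = 0.0093). Sox2 had 753, 1363 and 715 at D0 and 726, 906 and 625 at D6, and the states overlapped (log2 -0.38, SE 0.26, edgeR adjusted p = 0.412). Without D0 library 56, which was the highest, the Sox2 difference turned to 0.13. Sox3 had 1033, 643 and 878 at D0 and 721, 514 and 472 at D6, and the states overlapped (log2 -0.59, SE 0.28, edgeR adjusted p = 0.197).

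Sox12, the third SoxC factor, had 110, 73.8 and 121 RPM at D0 and 174, 155 and 130 at D6. The states did not overlap, but the difference of 0.58 (SE 0.36) had an edgeR adjusted p of 0.331. Without 4sU, 6 of the 8 genes had all D6 libraries above all D0 libraries, where 15.4% of the 20697 transcripts did and 13.8% had all D6 libraries below. Over all 47 libraries 4 of the 8 genes, Sox1, Sox4, Sox11 and Sox9, had every D6 library above every D0 library, where 1.79% of transcripts did.

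The same contrast was then made in libraries that share none with the first, after 15 h in 4sU. There, 7 of the 8 genes were called by edgeR, 5 higher and 2 lower at D6, where 10.3% of 20697 transcripts were called, 5.25% higher and 5.02% lower. Sox11 had 986, 1517 and 1025 RPM at D0 and 11158, 9729 and 10329.6 at D6 (log2 2.98, SE 0.18). Sox9 had 46.0, 59.8 and 51.0 at D0 and 973, 961 and 1013 at D6 (log2 4.07, SE 0.31). Sox4 (log2 1.97, SE 0.20) and Sox21 (2.46, SE 0.70) were again higher. Sox21 was called at an adjusted p of 0.0129 and lost its call without D0 library 25 (log2 2.43, adjusted p = 0.0549) or D0 library 27 (2.31, 0.0705).

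Sox1 had 10.5, 18.4 and 5.80 RPM at D0 after 15 h in 4sU and 166, 136 and 219 at D6 (log2 3.72, SE 0.58, edgeR adjusted p = 2.2e-06). The D0 libraries held only 20 to 88 Sox1 reads each, and the estimate ran from 3.38 to 4.36 with 1 library left out. Sox2 had 945, 1403 and 865 at D0 and 517, 620 and 722 at D6, so that all D6 libraries were lower (log2 -0.96, SE 0.26, edgeR adjusted p = 0.00885). This call was lost without D0 library 26 (log2 -0.59, adjusted p = 0.202) and without D6 library 7 (-0.86, 0.0643). Sox3 had 867, 481 and 968 at D0 and 301, 452 and 255 at D6 (log2 -1.33, SE 0.29, edgeR adjusted p = 6.7e-04), and no library was decisive for it. Sox12 had a log2 difference of 0.51 (SE 0.36, edgeR adjusted p = 0.417).

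A mean over the 8 assay and time points of each state, added after the data had been seen, called all 8 Sox genes, as it did 46.1% of 20697 transcripts. By this mean 6 genes rose and 2 fell, where 16.7% of transcripts rose and 29.4% fell and the median transcript stood at -0.40. Sox9 (4.14), Sox11 (3.25), Sox1 (2.65), Sox4 (2.25), Sox21 (1.98) and Sox12 (0.75) were higher at D6. Sox3 fell by 1.01 on the log2 scale. The Sox2 estimate of -0.40 was close to that of the median transcript.

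**Figure D2:**
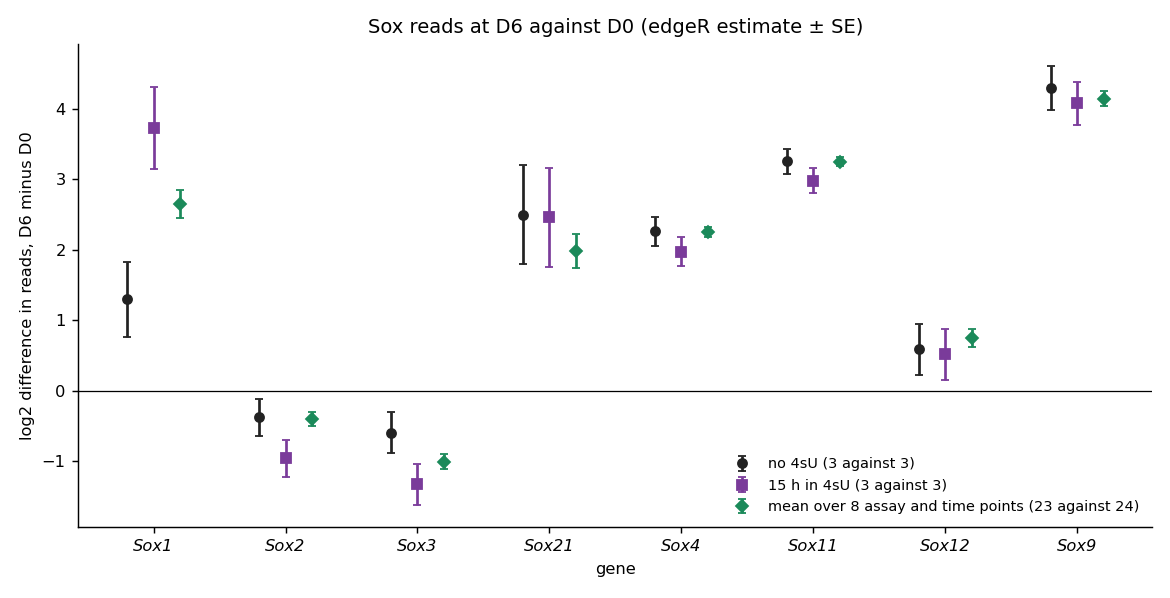
Log2 difference in reads between D6 and D0 (edgeR estimate, bars are the SE) for the 8 Sox genes without 4sU, after 15 h in 4sU and as the mean over 8 assay and time points. Sox9, Sox11, Sox4 and Sox21 lie well above 0 in all 3 estimates, and Sox2 and Sox3 lie below 0 in all 3.

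Across the family, the 8 genes took 0.331% to 0.417% of all 3′ UTR reads in the D0 libraries and 1.28% to 2.04% in the D6 libraries, which did not overlap. Sox11 alone gave 26.1% to 37.3% of these Sox reads at D0 and 61.3% to 73.3% at D6. By mean RPM without 4sU, the order at D0 was Sox11 (1132), Sox2 (944), Sox3 (852), Sox4 (549), Sox12 (102), Sox9 (60.7), Sox1 (42.7) and Sox21 (20.3). By the same measure, D6 had Sox11 (11109), Sox4 (2667), Sox9 (1181), Sox2 (752), Sox3 (569), Sox12 (153), Sox21 (114) and Sox1 (106). Division by interval length changes this order, though a read reports 1 transcript end whatever the length. Per kb of interval, the order of the mean levels without 4sU at D0 was Sox3 (1196 RPM per kb), Sox2 (869), Sox4 (559), Sox11 (163), Sox12 (32.3), Sox9 (27), Sox1 (21.2) and Sox21 (12.9). At D6 it was Sox4 (2713), Sox11 (1598), Sox3 (799), Sox2 (693), Sox9 (526), Sox21 (72.8), Sox1 (52.3) and Sox12 (48.7). Per kb at D0, Sox3 and Sox2, Sox2 and Sox4, Sox12 and Sox9, and Sox9 and Sox1 differed by less than the larger SD of the pair. At D6 the same held for Sox3 and Sox2, Sox21 and Sox1, and Sox1 and Sox12.

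Labeling was then set against no labeling within each state. None of the 8 genes was called by edgeR in either state, where 0.0483% of transcripts were called at D0 (0.0242% higher and 0.0242% lower) and 0.0193% at D6, and 1 gene in each state had an unadjusted p under 0.05. At D0 this was Sox1, with a log2 difference of -1.82 (SE 0.54, edgeR adjusted p = 0.509), which DESeq2 called, and DESeq2 called none at D6. The other gene was Sox3 at D6, at -0.87 (SE 0.29, edgeR adjusted p = 0.585). During the 9 h of the catabolic assay none of the 8 was called in either state, where edgeR called 0% of transcripts at D0 and 0.0725% at D6 (0.0338% higher and 0.0387% lower). Unadjusted p values under 0.05 belonged to Sox2 at D0 (log2 -0.78, SE 0.26) and to Sox4 (0.47, SE 0.20) and Sox11 (0.54, SE 0.16) at D6. Sox11 was called when no filter on low reads was used. DESeq2 called none of the 8 in this comparison.

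The level of label after 15 h was compared next, each Sox gene relative to all 3′ UTRs of its library. The library rate was 1.42% at D0 and 4.63% at D6. Sox11 had conversion rates of 1.71%, 1.26% and 1.31% at D0 and 4.54%, 4.42% and 3.99% at D6, close to the library in both. Sox12 was at 1.68%, 2.44% and 2.38% at D0 and 5.07%, 5.14% and 5.61% at D6. Relative to the library, none of the 8 genes was called between D6 and D0 by edgeR, where 0% of 14426 transcripts were called and 784 had an unadjusted p under 0.05. None of the 8 had one under 0.05, and limma on background-subtracted rates called none of them.

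Without 4sU, the conversion rate of the whole library was 0.144% to 0.207% at D0 and 0.136% to 0.190% at D6. Sox4 stood above this background, at 0.673%, 0.804% and 0.441% at D0 and at 0.773%, 0.533% and 0.191% at D6. The other 7 genes had mean rates of at most 0.190% at D0 and 0.165% at D6. Sox3 was lowest in both states among genes with a conversion in each group, with means of 0.019% and 0.018%, and Sox21 had none at D0.

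The loss of label asked how long the RNA labeled over 15 h lasted, where new RNA without label dilutes what is left. Sox3, a SoxB1 factor, lost label faster than the library at D0. Its rates after 15 h were 1.44%, 1.67% and 1.58%, and 9 h later they were 0.076%, 0.100% and 0.027%. The mean share left was 4.33%, against 29.2% for all 3′ UTRs together, or 2.90% against 19.5% with the rates without 4sU subtracted. Relative to the library this is a log2 difference of -2.73 (SE 0.54, edgeR adjusted p = 0.00395). The median transcript stood at -0.67, and relative to that median Sox3 was at -2.06. limma was also run on the rate over the library rate, on a linear scale, and did not call Sox3 either with background subtracted (adjusted p = 0.0836) or without (0.131). At D6 Sox3 went from 5.78%, 4.57% and 3.89% to 0.252%, 0.017% and 0.541% (log2 -1.70, SE 0.52, edgeR adjusted p = 0.0889). Without D6 library 18 the Sox3 difference passed the threshold (log2 -2.82, adjusted p = 0.0147).

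**Figure D3:**
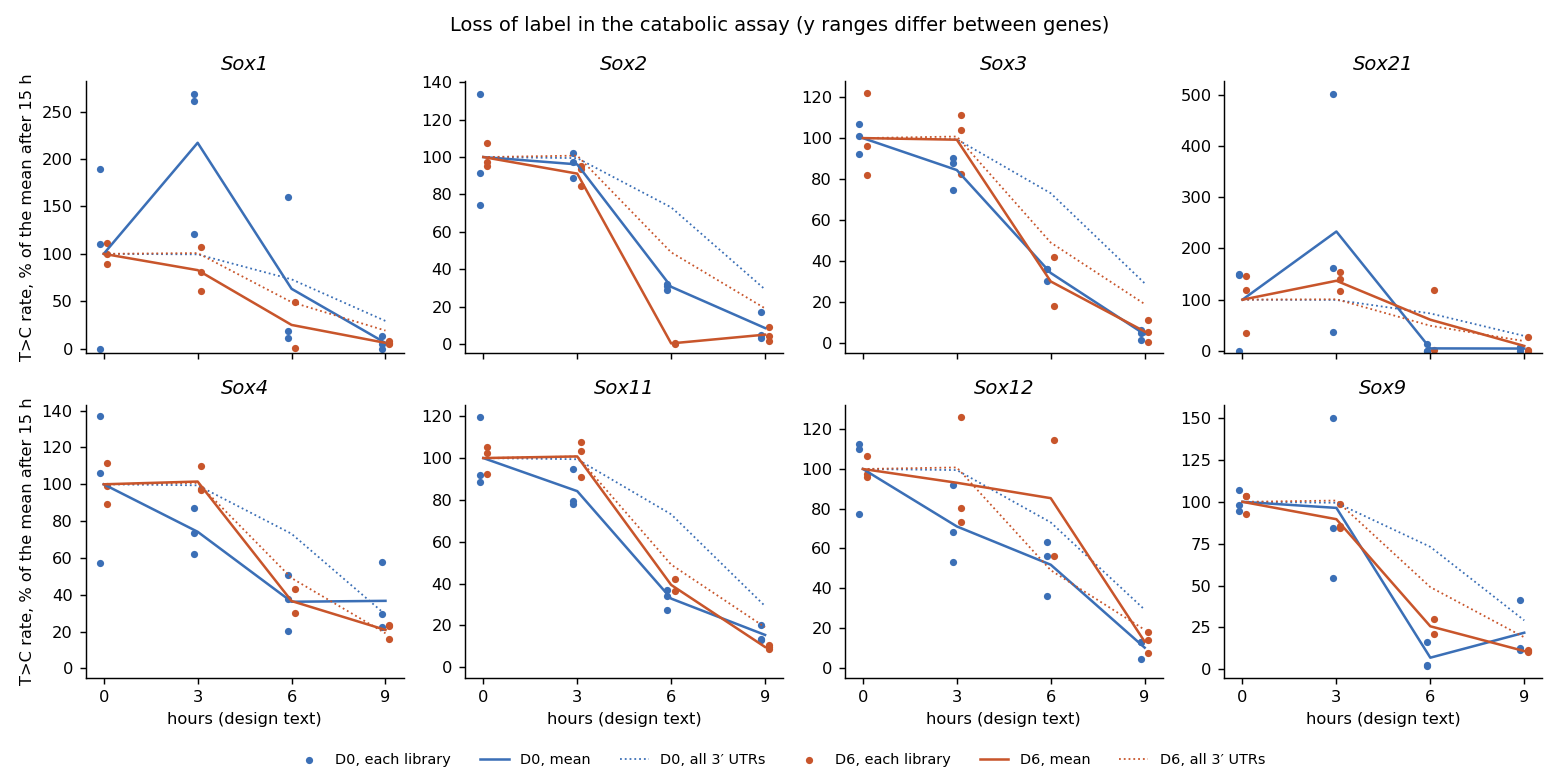
T>C conversion rate in percent of the gene's mean rate after 15 h of labeling, against hours of the catabolic assay, for D0 (blue) and D6 (orange), with points for libraries, solid lines for means and dotted lines for all 3′ UTRs of the same libraries. The means of Sox1, Sox2, Sox3, Sox11 and Sox9 run below the dotted lines at 6 and 9 h in both states, and Sox1 and Sox21 scatter widely at D0.

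Sox11 went from 1.71%, 1.26% and 1.31% to 0.189%, 0.286% and 0.185% at D0, with a mean share left of 15.4%, or 5.35% with its rate without 4sU subtracted, where the library had 29.2% and 19.5%. At D6 it went from 4.54%, 4.42% and 3.99% to 0.420%, 0.462% and 0.366%, with 9.64% left, against 19.1% for the library, or 7.32% against 16.1% with the rate without 4sU subtracted. Relative to the library, the log2 differences were -0.92 at D0 (SE 0.19, edgeR adjusted p = 0.00463) and -0.99 at D6 (SE 0.19, edgeR adjusted p = 0.00269). Relative to the median transcript they were -0.24 and -0.30. The call at D0 was lost without library 25 (log2 -0.75, adjusted p = 0.0784), library 34 (-0.82, 0.0670) or library 36 (-0.78, 0.0650). The call at D6 was lost without library 18 (-0.95, 0.0560) and in limma on the linear scale, with background subtracted (limma adjusted p = 0.374) or without (0.313). At D0 limma called Sox11 with background subtracted (0.0430) and not without (0.198). With 2 of the 8 genes called at D0 and 1 at D6, edgeR called 0.686% of 14426 transcripts at D0 and 0.589% at D6, and 0.527% and 0.43% were called lower.

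Sox2 went from 1.81%, 1.23% and 1.00% to 0.069%, 0.233% and 0.044% at D0, with 8.56% left, or 5.05% with its rate without 4sU subtracted (log2 -1.75, SE 0.57, edgeR adjusted p = 0.107). At D6 it went from 5.09%, 5.23% and 5.75% to 0.483%, 0.245% and 0.081%, with 5.03% left (log2 -1.98, SE 0.57, edgeR adjusted p = 0.0740). All 3 libraries at 9 h lay under all 3 at 0 h in both states, as they did for Sox3, Sox11, Sox9 and Sox12. The rate of the whole library fell as well, from a mean of 1.42% to 0.415% at D0 and from 4.63% to 0.883% at D6. This separation is therefore no difference from the library. At D0 Sox2 was called when only the groups compared were fitted (log2 -1.76, edgeR adjusted p = 0.00805), a fit that called 637 transcripts in place of 99. The Sox2 estimates also passed the threshold without D0 library 35 (log2 -2.83, adjusted p = 0.0408) and without D6 library 16 (-2.64, 0.0461). At D6 Sox2 passed it too with a minimum of 10000 covered T (log2 -1.97, edgeR adjusted p = 0.0371). At 6 h of the D6 assay both libraries had a Sox2 rate of only 0.009% and 0.027%, under the 9 h values and under its rate in 2 of the 3 libraries without 4sU.

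Sox4 was the member with the most label left. It went from 1.24%, 2.98% and 2.31% to 0.495%, 1.25% and 0.647% at D0, and 2 of the 3 late libraries lay under all early ones. At D6 it went from 4.73%, 5.26% and 5.92% to 1.24%, 0.860% and 1.22%. The shares left were 36.7% and 20.9%, and relative to the library the log2 differences were 0.35 (SE 0.44) and 0.13 (SE 0.44), with edgeR adjusted p of 0.726 and 0.950. With the rate without 4sU subtracted, the shares became 11.5% and 13.4%, against 19.5% and 16.1% for the library, so that the order reversed. Sox4 also turned below 0 without D0 library 35 (log2 -0.17) and without D6 library 18 (-0.016).

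Sox9 and Sox12 had log2 differences of -0.45 (SE 0.52) and -1.52 (SE 0.84) at D0 and of -0.80 (SE 0.50) and -0.53 (SE 0.82) at D6, none of them called by edgeR. Sox9 at D6 went from 5.42%, 5.43% and 4.87% to 0.534%, 0.568% and 0.606%, a tight loss to 10.9%. Sox12 at D6 went from 5.07%, 5.14% and 5.61% to 0.390%, 0.941% and 0.741%, or 13.1%. Sox1 and Sox21 could not be measured well at D0, where the 3 libraries at 0 h held 20 to 88 Sox1 reads and 64 to 140 Sox21 reads, and 1 of the 3 had no conversion in either gene. At D6 Sox1 went from 4.38%, 5.44% and 4.89% to 0.404%, 0.270% and 0.223%, with 6.10% left (log2 -1.66, SE 1.32).

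Counted over the family, 6 of the 8 genes lay below the median transcript at D0 and 6 at D6, with medians of the 8 of -1.64 and -0.93 against -0.67 and -0.68 for all transcripts. By definition, as many transcripts lie below that median as above it. At D0 the 6 include Sox1 (SE 1.54) and Sox21 (SE 1.78), which could not be measured well there. At D6 they include Sox21 and Sox9, which lay below the median by only 0.19 (SE 1.35) and 0.12 (SE 0.50). Sox4 was above the median in both states, Sox9 only in D0 libraries (by 0.23, SE 0.52) and Sox12 only in D6 libraries (by 0.15, SE 0.82). The states were compared by the slope of the log2 rate against time, a test of the rate itself and not of the rate relative to the library. None of the 8 was called by edgeR, where 0.0139% of 14426 transcripts were called and 882 had an unadjusted p under 0.05. None of the 8 had one under 0.05, and their adjusted p ran from 0.882 to 1. The difference in slope, D6 minus D0, was -0.08 per hour on the log2 scale for Sox11 (SE 0.05) and -0.10 for the median transcript. With the slope relative to the library, edgeR again called none of the 8, where it called 0.0208% of transcripts. None had an unadjusted p under 0.05, and the adjusted p ran from 0.819 to 1.

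For uptake, the rate at 9 h of the anabolic assay was set against the rate reached by 15 h of labeling. Sox11 went from 0.216%, 0.126% and 0.115% without 4sU to 0.884%, 0.912% and 0.842% at 6 h and 1.41%, 1.36% and 1.35% at 9 h at D0, or 96.4% of its rate after 15 h. At D6 it went from 0.122%, 0.123% and 0.087% to 2.89%, 3.00% and 2.87% and then to 4.04%, 3.41% and 3.87%, or 87.5%. At 6 h Sox11 thus stood at 61.7% and 67.7% of its rate after 15 h, where the library stood at 38.8% and 42.1%. Sox9 at D6 had reached 81.5% at 6 h, Sox3 76.6%, Sox4 64.5%, Sox21 55.5%, Sox2 55.2%, Sox1 47.1% and Sox12 36%. The Sox12 value at D6 came from rates of 2.11%, 3.41% and 0.167%, the last in library 45 with 7 conversions. Over the library rate these were 1.04, 1.51 and 0.106, so that its position below the library at D6 rests on library 45. Sox1 (0.061%) and Sox21 (0.045%) were also low in library 45. Sox2 at D0 had reached 81.9% at 6 h, and Sox12 31.4%. The mean of every gene except Sox12 was above the library at 6 h in both states.

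**Figure D4:**
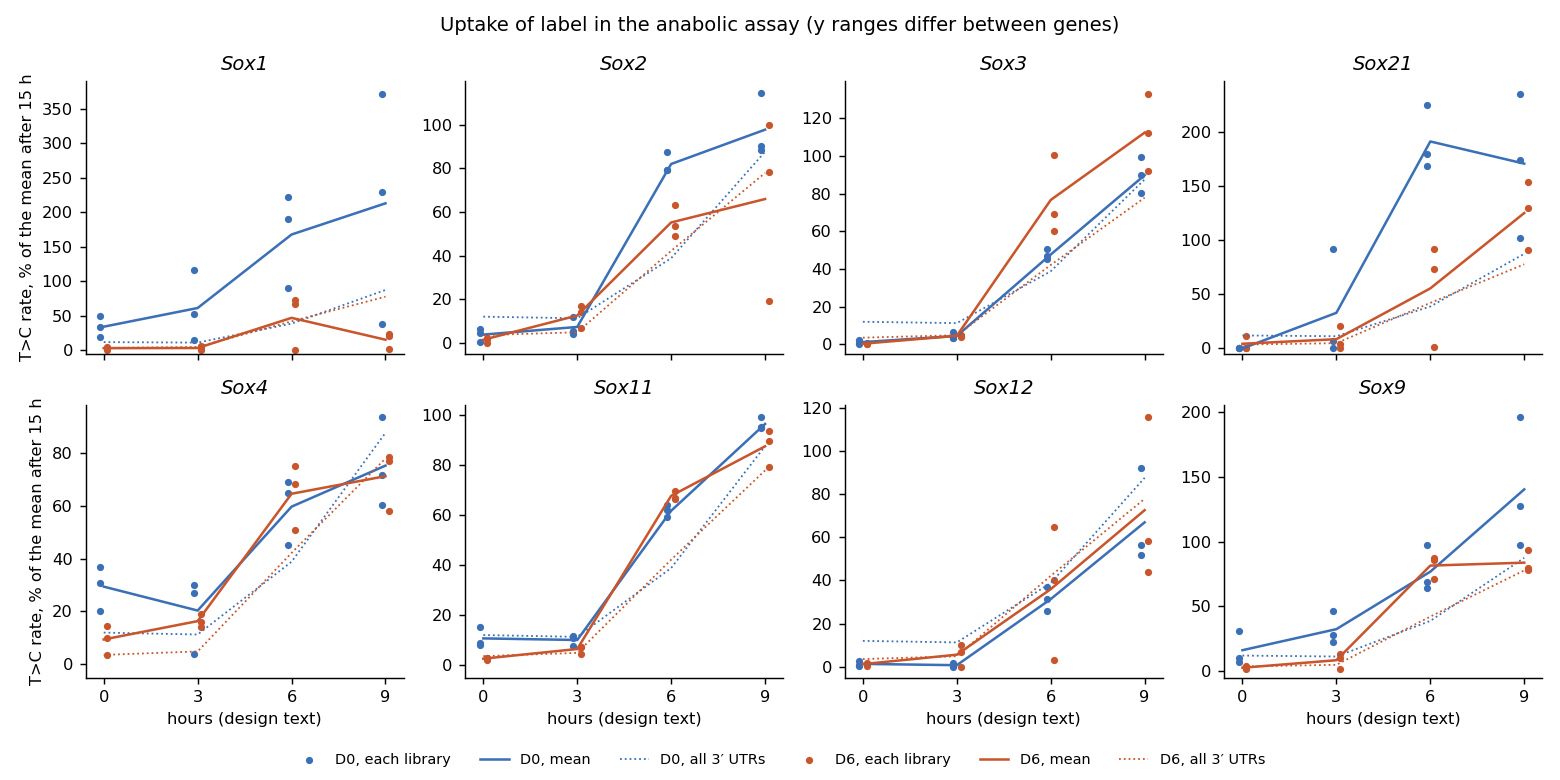
T>C conversion rate in percent of the gene's mean rate after 15 h of labeling, against hours of the anabolic assay, for D0 (blue) and D6 (orange), with points for libraries, solid lines for means and dotted lines for all 3′ UTRs of the same libraries. At 6 h the means of Sox11 and of every other gene except Sox12 lie above the dotted lines in both states, and the Sox12 mean lies below them. At D6 this Sox12 mean is pulled down by library 45 (0.167%), against 2.11% and 3.41% in libraries 43 and 44.

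After 9 h, relative to the library, none of the 8 genes was called at D0, at D6 or between the states. In each of these comparisons edgeR called 0% of 14426 transcripts, and 657, 684 and 839 of them had an unadjusted p under 0.05. None of the 8 genes had one under 0.05 in any, and limma on background-subtracted rates called none of them. At D6 Sox1 was the lowest of the 8, with rates of 1.02%, 0.094% and 1.16% at 9 h against 3.29%, 3.58% and 0.061% at 6 h, an order that runs against an uptake of label.

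Half-lives came from an exponential fitted to the libraries of each state and assay, and were kept where R squared was over 0.6. The decay half-life of Sox11 was 272 min (SE 41.5) at D0 and 315 min (SE 75.6) at D6. For Sox3 it was 251 min (SE 40.8) and 281 min (SE 78.2), for Sox2 274 min (SE 65.7) and 216 min (SE 58.2), and for Sox4 323 min (SE 70.9) and 350 min (SE 79.5). For each of these 4 genes the states differed by less than the sum of the SE. Sox12 had 282 min (SE 48.2) at D0 only, and Sox1 (239 min, SE 57.3) and Sox9 (266 min, SE 51.9) had one at D6 only. The median over all transcripts that met the criteria was 285 min at D0 (n = 2160 of 13536 fitted) and 219 min at D6 (n = 2295 of 13925 fitted). At D6 the Sox11 half-life lay above this median. Its label left after 9 h, however, was below the median of all 14426 transcripts tested, by 0.30 on the log2 scale. The 2 medians cover different sets of transcripts, so the half-lives do not place Sox11 among all transcripts.

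Synthesis half-lives were 228 min (SE 52) at D0 and 381 min (SE 80.7) at D6 for Sox2, and 338 min (SE 64.7) and 219 min (SE 63.6) for Sox3. With 1 library left out, the D6 value of Sox2 ran from 320 to 456 min in fits that met the criteria. Its D6 libraries at 9 h of uptake had rates of 1.04%, 4.20% and 5.36%. Sox11 had 270 min (SE 50.7) and 283 min (SE 50.5). Sox12 had 528 min (SE 105) at D0, and Sox4 (317 min, SE 43) and Sox9 (253 min, SE 50.1) had one at D6. The medians over all transcripts that met the criteria were 415 min at D0 (n = 3176 of 13536 fitted) and 380 min at D6 (n = 1355 of 13925 fitted). These fits hold the plateau at the rate after 15 h. With a free plateau, 8 of these 9 synthesis half-lives ran past the longest one allowed, and that of Sox4 at D6 became 1318 min (SE 3715), so that they rest on the fixed plateau. No half-life of Sox21 met the criteria in either assay or state. At the second time point, 3 h in the design and 1 h in the labels, the library still had 99.4% of its label at D0 and 100.8% at D6, and uptake with the rate without 4sU subtracted stood at -0.83% and 1.35%. R squared was higher with the hours of the labels for 10 of the 11 decay and 7 of the 9 synthesis half-lives, so that the hours are not settled here. With the hours of the sample labels, all these half-lives were shorter. Those of decay became 102 to 214 min, apart from Sox4 at D0, which no longer met the criteria, and those of synthesis 114 to 355 min. With 0 and 9 h only, decay half-lives ran from 119 to 373 min. In that setting 8 of the 9 synthesis half-lives were kept, at 99.9 to 348 min. The decay half-life of Sox4 at D0 became 174 min with background subtracted.

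**Figure D5:**
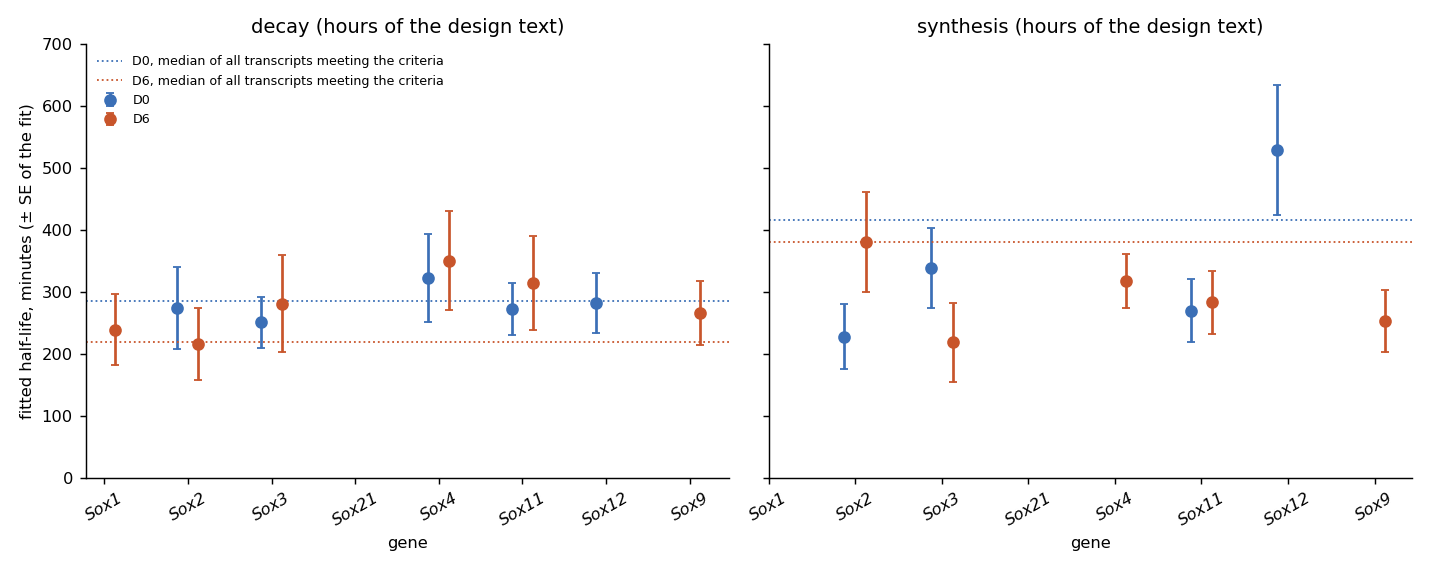
Fitted decay and synthesis half-lives in minutes (bars are the SE of the fit) at D0 (blue) and D6 (orange) for the Sox genes whose fit met the criteria, with dotted lines for the medians of all transcripts that did. With the design hours, decay half-lives of the Sox genes lie between 216 and 350 min, and the SE of the states meet for each gene measured in both. For synthesis, the SE of Sox2 at D0 and D6 do not meet, but its uptake after 9 h was not called between the states (edgeR unadjusted p = 0.531).

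Other genes around the Sox factors were read from lists. Of 53 genes on 5 lists, 46 could be tested and 29 were called between D6 and D0 without 4sU, 23 higher and 6 lower, where 10.1% of all transcripts were called, 6.03% higher and 4.08% lower. Among the 11 other Sox genes, 7 passed the filter on reads and none was called by edgeR, with Sox5 and Sox8 at an unadjusted p under 0.05. DESeq2 called Sox5. Sox5 had 46.2, 38.7 and 23.2 RPM at D0 and 105, 73.3 and 82.5 at D6 (log2 1.23, SE 0.56, edgeR adjusted p = 0.168). Sox6 went from 66.7, 145 and 93.2 to 64.4, 48.3 and 26.4 (log2 -1.19, SE 0.95) and Sox13 from 16.3, 0.182 and 9.56 to 19.1, 37.8 and 25.5 (log2 1.72, SE 1.42), with edgeR adjusted p of 0.514 and 0.534. Sox8 had no read in the 3 D0 libraries and 0, 8.33 and 7.74 at D6. Sox14 had 61 reads in 1 D0 library, and Sox7 and Sox15 had none in these 6 libraries.

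Of the partners and targets of Sox2 in pluripotent cells, 5 of 8 tested were lower at D6 and none higher. Lefty1, a Nodal antagonist, went from 79.8, 69.5 and 34.4 RPM to 0, 0 and 0.287. Nanog went from 131 reads over the D0 group to 0 at D6, at least 33.9-fold lower against a floor of 3 reads over the group, and its edgeR call was lost without any 1 of libraries 55, 57, 37, 38 and 39 (adjusted p of 0.0598 to 0.122). Sox2 itself was at 625 to 906 in the same D6 libraries. Of the neural progenitor genes, 6 of 11 tested were higher and none lower, among them the Notch target Hes5 (log2 9.81, SE 0.87) and the POU factor Pou3f2 (8.81, SE 0.82). Of the proneural genes 5 of 8 tested were higher, with Neurog1 at a log2 of 8.80 (SE 1.47), and Eomes, which also marks mesendoderm, fell by 7.39 on the log2 scale. All 12 neuron genes were higher, including Rbfox3 (8.31, SE 1.67) and Dcx (7.79, SE 0.50).

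For each Sox gene, the other gene most like it was the one with the highest Pearson r of log2(RPM + 1) over the 47 libraries, which share the difference between D0 and D6. It was Hoxb5 for both Sox11 (r = 0.992) and Sox9 (0.987), Hoxb8 for Sox4 (0.977), Foxp1 for Sox1 (0.926), Lrrc42 for Sox3 (0.889), Rbms3 for Sox21 (0.885), Kmt2a for Sox12 (0.805) and Alyref2 for Sox2 (0.752). Within D0 libraries alone r was 0.092 for Sox11 and 0.329 for Sox9, and within D6 libraries it was 0.392 and 0.027. For Sox3, r stayed at 0.787 within D0 and 0.788 within D6 libraries. It was 0.786 and 0.563 for Sox2, 0.603 and 0.572 for Sox12, and 0.330 and 0.491 for Sox1. For Sox4 it was -0.198 within D0 and 0.676 within D6 libraries, and for Sox21 0.056 and 0.881.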

How the data were processed

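Libraries were prepared with a QuantSeq 3′ kit from total RNA of P19 cells. The authors used SLAMdunk on mm10 and deposited, for each 3′ UTR interval, counts of reads, of T positions covered and of T>C conversions, which were used here. The deposited conversion rate, a fraction, and the deposited CPM were not used. Each file lists 39419 intervals for 30609 RefSeq transcripts, and 28147 of the 28190 mRNA transcripts had a symbol in the RefSeq GRCm38.p6 gene table. Counts were summed per transcript. No 2 libraries held identical counts. The Sox genes, lists and markers were chosen with earlier results of these data known, and give no independent evidence of direction.

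Reads were tested in R 4.3.3 with edgeR 4.0.16 (quasi-likelihood test, TMM, filterByExpr, Benjamini-Hochberg adjustment at 0.05 over all 20697 transcripts), with 1 coefficient per state, assay and time point over 47 libraries. Label was tested likewise on conversion counts in the 41 libraries with 4sU, for the 14426 transcripts whose mean coverage reached 1000 T positions, with the covered T times the conversion rate of the library as offset. The decay slope used the 23 catabolic libraries. Half-lives up to 5000 min were fitted in Python 3.11.15 with numpy 2.4.6. A fit was set aside if its curve had dropped below 0.001 by the earliest time after 0 h, a limit chosen after the data had been seen. Alternatives used DESeq2 1.42.0, limma 3.58.1 on the rate over the library rate (linear, not log2, without the second time points), other minimums, the hours of the labels and each library left out in turn, with the dispersion trend of all libraries. There were no molecular identifiers, and errors are those between replicates. The tests were run on simulated data, where estimates were close to the changes put in and false calls were rare, but only a minority of changed transcripts was called, least often for label left after 9 h. A gene without a call may thus have changed. The simulation was revised once, from the dispersion trend to the dispersion of each transcript, after its first result had been seen. Named list genes were the 2 with the largest change among those called, and every other Sox gene that passed the filter. Sequences were read from GENCODE M21 transcripts. Protein sequences were not used here. Doses and hours came from the labels, the design text and the methods of the study.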

Additional observations from a re-analysis of the deposited data

How the results depend on the processing

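Counts of called Sox genes moved by over 1.5 times in a few settings. The mean over 8 assay and time points, added after the data had been seen, called 8 genes in the comparison without 4sU in place of 4, and 46.1% of all transcripts. DESeq2 called 1 gene in place of 0 for 15 h in 4sU against none at D0, and 1.58% of transcripts. No filter on low reads called 1 in place of 0 for 9 h against 0 h at D6, and 0.442% of transcripts. For label left after 9 h relative to the library, limma on linear rates with background subtracted called 1 in place of 2 at D0 and 0 in place of 1 at D6, and 10.4% and 1.31% of transcripts. The same fit without subtraction, added after the data had been seen, called 0 in both states, and 3.15% and 1.37%. A minimum of 10000 covered T, which 6 of the 8 genes met, called 2 at D6, and 2.56% of transcripts. Leaving out 1 library gave 1 to 3 calls at D0 and 1 to 2 at D6. Leaving out 1 library gave 3 to 4 calls for reads without 4sU and 6 to 7 after 15 h in 4sU. The cause was not tested. Of the counts under other settings, 167 stayed within 1.5 times and 12 did not. Among single genes, 443 values kept direction and side of the threshold, 22 lost and 14 gained a call, and 5 reversed. In limma, the difference of Sox4 in rate over library rate was -0.45 at D0 and -0.19 at D6 with background subtracted, and 0.42 and 0.10 without. Without 1 library, the log2 difference of Sox4 label left ran from -0.17 to 0.60 at D0 and from -0.016 to 0.28 at D6, and Sox2 reads without 4sU from -0.57 to 0.13. Of the half-life values, 282 stayed within the SE of the fit and 41 moved beyond it. With a free plateau, 8 of 9 synthesis half-lives ran past the longest one allowed. No paired analysis was possible because the library numbers in the labels are unique. Sox1 and Sox21 at D0 rest on few reads, which limits their rates.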

Other observations

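The other Sox genes were also read over all libraries. Sox5, a SoxD factor, had a median of 36.7 RPM at D0 and 105 at D6, and Sox6 of 79.3 and 42.5. By the mean over 8 assay and time points, which called 46.1% of transcripts around a median of -0.40, Sox5 was at a log2 of 1.65 (edgeR adjusted p = 3.8e-10) and Sox6 at -1.12 (0.00525). Sox17 and Sox30 had no read in any library, and Sox10 and Sox18 had 5 and 1 in all.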
